A study of Mus musculus with 22 samples.

Results

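The colony-stimulating factors and their receptors were followed in tumors grown from MC38 cells, in the MC38 cells themselves and in normal skin. The 8 genes were chosen by name from 46882 genes listed. No measured value was in the rule, but earlier results of these data were known when the genes were chosen. Csf1, Il34, Csf2 and Csf3 encode the ligands M-CSF, interleukin-34, GM-CSF and G-CSF. Csf1r, Csf2ra, Csf2rb and Csf3r encode receptor chains. M-CSF and interleukin-34 both bind the kinase CSF1R, on which monocytes and macrophages depend for survival. GM-CSF binds a receptor made of the alpha chain CSF2RA and the shared beta chain CSF2RB, and G-CSF binds CSF3R, the main growth receptor of neutrophils. Carcinoma cells are a known source of these ligands, whereas the receptors belong mostly to myeloid cells of the host.

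MC38 is a mouse colon carcinoma cell line that was chemically induced in a C57BL/6 animal. The 16 libraries used comprised 2 of MC38 cells (C57BL/6N, labelled day 0), 2 of skin (wild type C57BL/6N, labelled day 23), 3 tumors each from wild type C57BL/6N mice at day 23 and day 46, and 3 tumors each from RAG1-/- mice of the strain B6.129S7-Rag1tm1Mom/J at day 13 and day 23. Mice were 8 to 12 weeks old, and the study's methods give them as females that received MC38 cells under the skin of a flank. RAG1-/- mice form no mature T or B cells but keep their myeloid cells, natural killer cells and stroma. All tumors came from 1 cell line, each RNA sample was 1 of 3 pieces of its tumor, and day 23 was the only day shared by the genotypes. The strain background differed together with the genotype, so these cannot be told apart. Nothing in the labels says from which animals the 2 skin samples came, or whether the 2 MC38 samples were separate cultures, so that p-values measure the spread between these samples, which may be partly technical.

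Reads on genes ranged from 5589151 to 26134241 per library. All values are normalized counts, that is, reads per gene divided by the size factor of the library, and 3 reads, taken as the detection limit, corresponded to between 1.33 and 6.38 normalized counts. Rag1 itself had 1 to 12 reads in each of the 6 libraries labelled RAG1-/- and at most 1 read in any other library. Whether these few reads go against the labels was not tested. The part of the gene these 3' reads come from is not given in the sources used here. The T cell list (9 genes) did follow the labels, with a summed level of 127 ± 71.4 in wild-type tumors and 10.7 ± 6.39 in tumors labelled RAG1-/- (SD, n = 6 each). All directions between genotypes below rest on the labels. The keratinocyte list was at 242616 ± 2403 in skin (SD, n = 2), and Epcam, an epithelial adhesion gene, had 0 and 4 reads in the 2 libraries of MC38 cells although the line is of colon origin.

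In the mm10 genome, with gene models of GENCODE M21, the ligand genes lie at chr3:107741048-107760469 (Csf1, minus strand), chr8:110741829-110805924 (Il34, minus strand), chr11:54247271-54249667 (Csf2, minus strand) and chr11:98701263-98703629 (Csf3, plus strand). The receptor genes lie at chr19:61223957-61228429 (Csf2ra, minus strand), chr15:78325752-78353847 (Csf2rb, plus strand) and chr4:126024550-126044440 (Csf3r, plus strand).

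Promoters from RefSeq (build GRCm38.p6) matched 4 of the 8 genes, of which Csf2, at or under the detection limit, is left out. The 250 bases before the RefSeq start are shown for the ligand Csf1 and the receptor gene Csf2ra, because the results below turn on the different behavior of ligand and receptor genes; capitals mark GAGGAA, the core letters of a PU.1 box. PU.1, the product of Spi1, is a transcription factor of myeloid cells. The first stretch spans chr3:107760470-107760719 and the second chr19:61228419-61228668, both on the minus strand.
Csf1: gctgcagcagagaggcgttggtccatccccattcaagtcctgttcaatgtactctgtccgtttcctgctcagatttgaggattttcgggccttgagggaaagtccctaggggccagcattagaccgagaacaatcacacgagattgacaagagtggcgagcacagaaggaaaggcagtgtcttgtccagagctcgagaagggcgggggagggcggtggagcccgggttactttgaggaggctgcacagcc
Csf2ra: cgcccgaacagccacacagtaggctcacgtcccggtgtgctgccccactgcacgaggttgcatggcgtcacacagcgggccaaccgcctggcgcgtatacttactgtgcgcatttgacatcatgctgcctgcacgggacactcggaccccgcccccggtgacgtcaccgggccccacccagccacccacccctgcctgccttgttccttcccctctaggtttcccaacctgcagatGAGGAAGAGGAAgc

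Searched on both strands, GAGGAA occurred in 2 adjoining copies in Csf2ra, at positions -14 to -9 and -8 to -3 from the RefSeq start. It occurred once in Csf3r, at -86 to -81, and was not found in the Csf1 stretch. The RefSeq start lies 11 bases inside the GENCODE gene for Csf2ra and 109 bases inside it for Csf3r, so that by the GENCODE models the Csf3r match and the second Csf2ra copy are within the gene and the first Csf2ra copy straddles its start. The same letters are in 23.3% of 32851 promoter stretches of this length. The letters of a TATA box, TATAAA, were found in none of the 3 stretches searched and are in 12.4% of all. These matches describe letters only.

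Of the ligands, Csf1 and Il34 were read in every library. Csf1 was at 1223 and 1092 normalized counts in MC38 cells and at 326 and 370 in skin. In wild-type tumors it was at 1504, 1222 and 876 at day 23 and at 1356, 1384 and 1047 at day 46. In tumors labelled RAG1-/- it was at 1566, 1583 and 1482 at day 13 and at 875, 1581 and 1243 at day 23. Both skin libraries were the lowest of all, and the MC38 cells lay inside the range of the tumors. Ordered by group mean, the levels ran from day 13 RAG1-/- (1544 ± 54.0) through day 46 wild type (1262 ± 187), day 23 RAG1-/- (1233 ± 353), day 23 wild type (1201 ± 314) and MC38 cells (1157 ± 92.4) to skin (348 ± 31.2; SD, n = 3 for tumors and 2 otherwise). Among neighbors in this order, only the first pair and the last pair had ranges that did not overlap.

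Il34 was at 619 and 674 normalized counts in MC38 cells and at 284 and 348 in skin. Wild-type tumors had 1224, 1062 and 1125 at day 23 and 991, 921 and 1003 at day 46. Tumors labelled RAG1-/- had 807, 951 and 953 at day 13 and 630, 753 and 824 at day 23. The 3 wild-type tumors of day 23 were the highest of all libraries and skin was again the lowest. By group mean the order was day 23 wild type (1137 ± 81.4), day 46 wild type (972 ± 44.7), day 13 RAG1-/- (903 ± 83.8), day 23 RAG1-/- (736 ± 98.4), MC38 cells (646 ± 38.9) and skin (316 ± 45.3). The first pair of neighbors and the last pair did not overlap, and the other neighbors did. In normal skin interleukin-34 is known as a product of keratinocytes that maintains Langerhans cells, and Cd207, which encodes langerin of Langerhans cells, was at 161 ± 23.0 in skin (SD, n = 2). The Langerhans cell list (Cd207 and Epcam) was at 2663 ± 472 in skin, of which Epcam, also a gene of other epithelial cells, made up 2502, and at 9.81 ± 5.90 in wild-type tumors (SD, n = 6).

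The other ligands were at or under the detection limit. Csf2 had 5 reads in all, spread over 2 of the 16 libraries, 1 tumor labelled RAG1-/- of day 13 (2.22 normalized counts) and 1 wild-type tumor of day 23 (2.21). Csf3 had no read in any library. A count of 0 allows up to 3 reads of Csf3 among the 202674663 reads of all libraries, a limit that covers counting error only. For these 2 ligands no difference between groups was detectable at this depth, and both missed the filter on low values (5 normalized counts on average across the libraries of a fit), so that 6 of the 8 genes were tested.

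**Figure D1:**
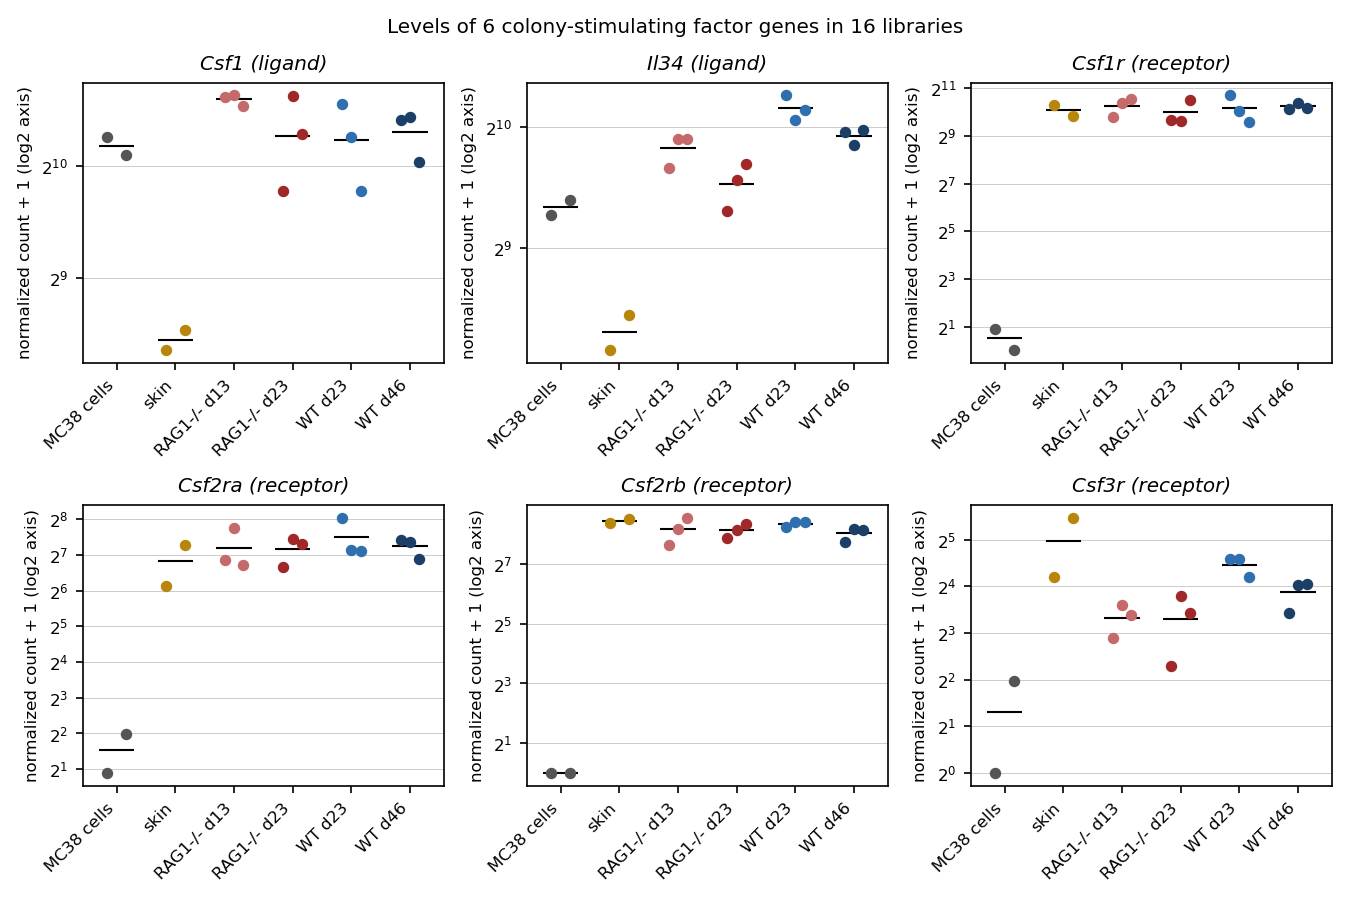
Each point is 1 library and each bar the mean of a group; the vertical axis is the normalized count plus 1 on a log2 axis, with its own range in each panel, for MC38 cells, skin and tumors of RAG1-/- and wild-type (WT) mice at the day given (d). Csf1 and Il34 in MC38 cells lie near the tumors, between 619 and 1223, while the 4 receptor genes in MC38 cells lie at 2.93 or less, below every tumor and skin library.

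The receptor genes were almost unread in MC38 cells and were read in every tumor and skin library. For Csf3r, day 23 replicate 1 of the tumors labelled RAG1-/- had 3 reads, the detection limit, as did MC38 replicate 2. Csf1r (chr18:61100598-61132149, plus strand) was at 0.856 and 0 normalized counts in the 2 libraries of MC38 cells, which is 1 read, and at 1244 and 905 in skin. Wild-type tumors had 1668, 1040 and 765 at day 23 and 1122, 1344 and 1161 at day 46, and tumors labelled RAG1-/- had 895, 1319 and 1479 at day 13 and 809, 792 and 1441 at day 23. The tumors and skin overlapped throughout: by group mean the order was day 13 RAG1-/- (1231), day 46 wild type (1209), day 23 wild type (1158), skin (1075) and day 23 RAG1-/- (1014), and each neighboring pair shared part of its range. The longer of the annotated full-length Csf1r transcripts runs 873 bases into the opposite strand of Hmgxb3, and whether reads were counted by strand is not given in the sources used here. Hmgxb3 was at 377 and 368 in the MC38 cells that held that 1 read of Csf1r.

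Csf2ra, the ligand-specific chain for GM-CSF, was at 0.856 and 2.93 in MC38 cells and at 69.7 and 156 in skin. In wild-type tumors it was at 263, 140 and 136 at day 23 and at 172, 165 and 117 at day 46. Tumors labelled RAG1-/- had 116, 215 and 104 at day 13 and 100.8, 174 and 156 at day 23. All groups but MC38 cells overlapped with their neighbors, from day 23 wild type (180 ± 72.3) down to skin (113 ± 60.7).

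Csf2rb, the signaling chain shared by the receptors for GM-CSF, interleukin-3 and interleukin-5, had no read in MC38 cells and was at 335 and 367 in skin. In wild-type tumors it was at 299, 338 and 339 at day 23 and at 214, 287 and 283 at day 46. In tumors labelled RAG1-/- it was at 197, 290 and 374 at day 13 and at 232, 283 and 323 at day 23. Skin had the highest mean (351 ± 22.8) and day 46 wild type the lowest of the tissues (261 ± 41.0), with overlap between all neighbors. Mouse has a close copy, Csf2rb2, the beta chain used by interleukin-3 only. No run of 50 bases was shared by the last 500 bases of their longest transcripts, where 3' reads fall, against 18.4% over the whole transcript. Csf2rb2 was at 0.856 ± 1.21 in MC38 cells, 190 ± 37.7 in skin, 139 ± 43.5 in wild-type tumors and 121 ± 34.4 in tumors labelled RAG1-/-.

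Csf3r was the least read of the 4, with 3 to 31 reads per tumor. It was at 0 and 2.93 in MC38 cells and at 17.4 and 43.3 in skin. In wild-type tumors it was at 22.9, 23.0 and 17.4 at day 23 and at 9.77, 15.4 and 15.7 at day 46. In tumors labelled RAG1-/- it was at 6.42, 11.1 and 9.53 at day 13 and at 3.93, 12.8 and 9.72 at day 23. Every wild-type tumor of day 23 was above every tumor labelled RAG1-/-, and of the 2 skin libraries 1 was level with the lowest wild-type tumor of day 23 and 1 lay above all of them.

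Wild-type tumors were first compared with MC38 cells, to set what the cell line carried into the mouse against what was read in the tumor. By limma, 5 of the 6 genes tested were higher in the tumors and none was lower, where 27.9% of 14708 genes were called in either direction and 18.3% as higher. The 5 were Il34 and the 4 receptor genes. Il34 was 1.63-fold higher (log2 difference 0.70, SE 0.14, limma adjusted p = 0.001, on the log2 scale of normalized count + 1). Csf1 did not pass the test, with a log2 difference of 0.07 (95% interval -0.37 to 0.51, limma adjusted p = 0.853). In these bulk samples, more cells of a type and more RNA per cell cannot be told apart.

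For the receptor genes the fitted log2 differences depend on the pseudocount, so the ratio of mean levels to the pooled reads of the 2 MC38 libraries is given with an exact Poisson interval, which covers counting error in MC38 cells only. Csf1r in wild-type tumors was 2594-fold the MC38 level (1 read, 95% interval 466 to 102447), Csf2ra was 90.7-fold (4 reads, 35.4 to 333) and Csf3r was 12.7-fold (3 reads, 4.34 to 61.5). Csf2rb, with no read in MC38 cells, was at least 214-fold higher, taking 3 reads over both libraries as the floor; the bound by the exact Poisson interval used for the other genes was 174-fold. Limma's adjusted p-values were 3.15e-14 for Csf1r, 7.31e-10 for Csf2ra, 3.12e-14 for Csf2rb and 0.000632 for Csf3r. An exact permutation test of 6 tumors against 2 MC38 libraries gave p = 0.0714 for Il34 and for each of the 4 receptor genes, the smallest p this design allows.

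Tumors labelled RAG1-/- were compared with the same 2 libraries of MC38 cells, so this comparison shares its controls with the one before. Here 4 of the 6 genes were higher and none was lower, against 23.3% of genes called and 15.8% called as higher. The 4 were the receptor genes. Csf1r was 2460-fold the MC38 level (441 to 97152), Csf2ra 79.1-fold (30.9 to 290.1) and Csf3r 6.51-fold (2.23 to 31.6). Csf2rb was at least 207-fold higher by the floor of 3 reads and at least 168-fold by the exact Poisson interval. Csf3r passed with limma adjusted p = 0.011 and no longer passed without MC38 replicate 1 (adjusted p = 0.298), the library in which it had no read. Il34 had a log2 difference of 0.33 (SE 0.14, limma adjusted p = 0.102) and Csf1 one of 0.23 (SE 0.21, adjusted p = 0.467). Without day 23 replicate 1 of the RAG1-/- tumors, Il34 had an adjusted p of 0.0499.

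**Figure D2:**
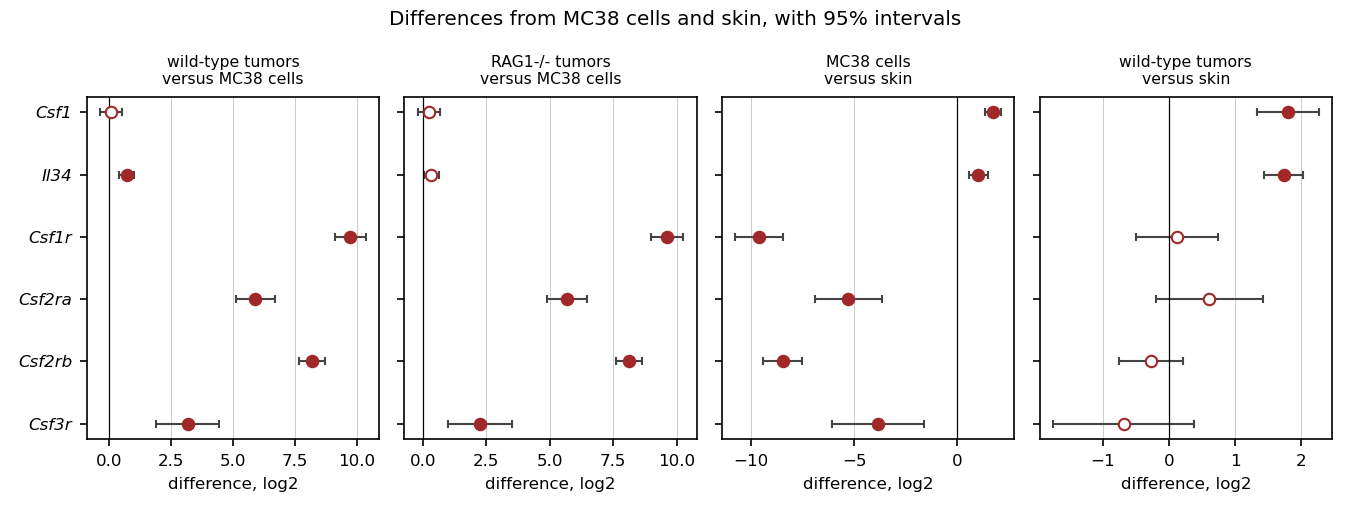
Points are limma log2 differences (first group minus second, on the log2 scale of normalized count + 1) with 95% intervals for the 6 genes tested in 4 comparisons; filled points have an adjusted p under 0.05, and the horizontal range differs between panels. The receptor genes sit far to the right against MC38 cells, from 2.24 to 9.72, and Csf1 sits near 0 there, whereas between wild-type tumors and skin the 2 ligands are the ones with filled points.

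MC38 cells were compared with skin as the normal tissue of the study. All 6 genes tested passed, where 62% of 16780 genes were called, 20.8% as higher and 41.2% as lower. Csf1 was 3.32-fold higher in MC38 cells (log2 difference 1.73, SE 0.16, limma adjusted p = 0.000781) and Il34 was 2.05-fold higher (1.04, SE 0.18, limma adjusted p = 0.00593). The 4 receptor genes were lower in MC38 cells, and relative to MC38 cells skin had 2356-fold Csf1r (423 to 93041), 61.7-fold Csf2ra (24.1 to 226) and 22.2-fold Csf3r (7.59 to 108). For Csf2rb skin had at least 256-fold by the floor of 3 reads and at least 208.6-fold by the exact Poisson interval. With 2 libraries a side some calls rested on single libraries: Csf3r lost its call without MC38 replicate 1 (adjusted p = 0.0526), skin replicate 1 (0.146) or skin replicate 2 (0.213) and with a pseudocount of 0.1 (0.0596), Csf2ra without skin replicate 1 (0.0588) or 2 (0.0711), and Il34 without MC38 replicate 2 (0.0548).

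Against skin, wild-type tumors held more of both ligands that were read. Csf1 was 3.49-fold higher (log2 difference 1.80, SE 0.22, limma adjusted p = 7.64e-06) and Il34 was 3.33-fold higher (1.74, SE 0.14, limma adjusted p = 1.32e-07). These were the 2 of 6 genes called, where 57% of 16259 genes were called and 22.8% as higher. None of the receptor genes passed: the log2 differences were 0.12 for Csf1r (95% interval -0.50 to 0.74), 0.61 for Csf2ra (-0.20 to 1.43), -0.27 for Csf2rb (-0.75 to 0.21) and -0.69 for Csf3r (-1.76 to 0.38). Scaled to equal totals, which moved the median of all genes from -0.18 to 0.23 on the log2 scale, Csf2ra passed (1.01, adjusted p = 0.0399) and Csf2rb changed sign (0.12).

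The marker lists of myeloid cells, like the receptor genes, were lowest in MC38 cells. This was not particular to myeloid cells, as the endothelial and fibroblast lists were lowest there too. The endothelial list was at 11.5 in MC38 cells, 511 in wild-type tumors, 494 in tumors labelled RAG1-/- and 1058 in skin. In the same order the fibroblast list was at 4067, 28221, 25000 and 386621. The macrophage and monocyte list (13 genes) had a summed level of 222 (range 210.5 to 233) in MC38 cells, with Adgre1, Fcgr1, Aif1, Mrc1 and Ccr2 at 0. It was at 27008 (22505 to 33528) in wild-type tumors, 22115 (16429 to 27811) in tumors labelled RAG1-/- and 13384 (12691 to 14078) in skin. All 13 of its genes were higher than in MC38 cells in wild-type tumors (18.3% of all genes) and in tumors labelled RAG1-/- (15.8%). Between wild-type tumors and skin 6 were higher in the tumors (22.8% of all genes) and 3 lower (34.2%). The neutrophil list (11 genes) was at 11.3 in MC38 cells, with 8 genes at 0, and at 2088 and 14474 in the 2 skin libraries. The second skin library also held the highest Csf3r. Of this list, Ltf, Ngp and Elane had no read in skin, Camp was at 7.27 ± 4.87 and Cxcr2 at 79.4 ± 13.8 (SD, n = 2). The skin sums therefore rest on other genes of the list, and whether neutrophils carry them was not tested. In wild-type tumors the list was at 66.9 (26.6 to 128) and in tumors labelled RAG1-/- at 117 (52.4 to 249). Of its 5 genes tested, 3 were lower in wild-type tumors than in skin (34.2% of all genes) and none was higher (22.8%). The part of these lists in the receptor values was not tested.

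**Figure D3:**
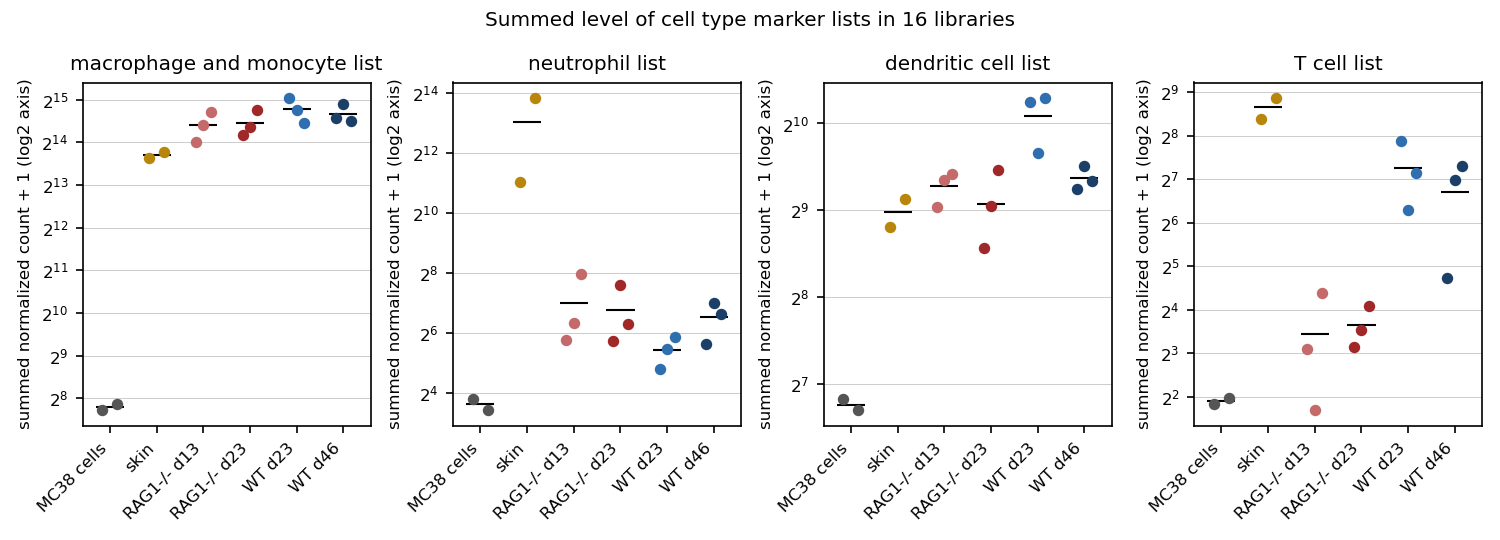
Points are the summed normalized counts plus 1 of 4 marker lists in each library on a log2 axis, with the group mean as a bar. The macrophage and monocyte list is high in all tumors and skin and lowest in MC38 cells, as the receptor genes are. The fibroblast and endothelial lists, not drawn, were lowest there too. The neutrophil list is highest in skin, and the T cell list is low in the 6 tumors labelled RAG1-/-.

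Genotype was then compared among tumors. At day 23, 0 of the 6 genes passed by limma, where 0.278% of 14746 genes were called. Il34 came nearest, 1.55-fold higher in wild-type tumors (log2 difference 0.63, SE 0.15, limma adjusted p = 0.0933). Each of the 3 wild-type tumors exceeded each of the 3 labelled RAG1-/-. With DESeq2 on reads recovered from the normalized counts, Il34 passed (0.62, adjusted p = 0.00811), whereas over all 17 alternatives its adjusted p ran from 0.00811 to 0.373. Csf3r was 2.44-fold higher in wild-type tumors without passing (1.29, SE 0.52, limma adjusted p = 0.374), again with no overlap. These 2 genes were the ones whose groups did not overlap, and 16.1% of all genes tested had groups that did not. For 3 tumors against 3 an exact permutation test gave p = 0.1 for both, the smallest p possible.

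Taking both days together, 6 wild-type tumors against 6 labelled RAG1-/-, none of the 6 genes passed, where 0.712% of 14746 genes were called. By limma, 1682 of the 14746 had an unadjusted p under 0.05. Il34 was at 1054 ± 108 against 819 ± 123 (SD, n = 6 each), a log2 difference of 0.37 (SE 0.10, limma adjusted p = 0.148), and Csf3r was at 17.4 ± 5.03 against 8.91 ± 3.22, a difference of 0.92 (SE 0.37, limma adjusted p = 0.344). For each of them 5 of the 6 wild-type tumors lay above every tumor labelled RAG1-/-, and the exact permutation test of that gene alone gave p = 0.00649 (two-sided, 6 against 6, not adjusted for the 8 genes tested in this way). The other 4 genes differed by less than the spread between tumors: Csf1 by -0.17 (95% interval -0.50 to 0.16), Csf1r by 0.09 (-0.33 to 0.50), Csf2ra by 0.20 (-0.30 to 0.71) and Csf2rb by 0.06 (-0.28 to 0.41). Genotype and day of sampling differ together here. DESeq2 called Il34 (0.36, adjusted p = 0.0484), and edgeR did not.

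**Figure D4:**
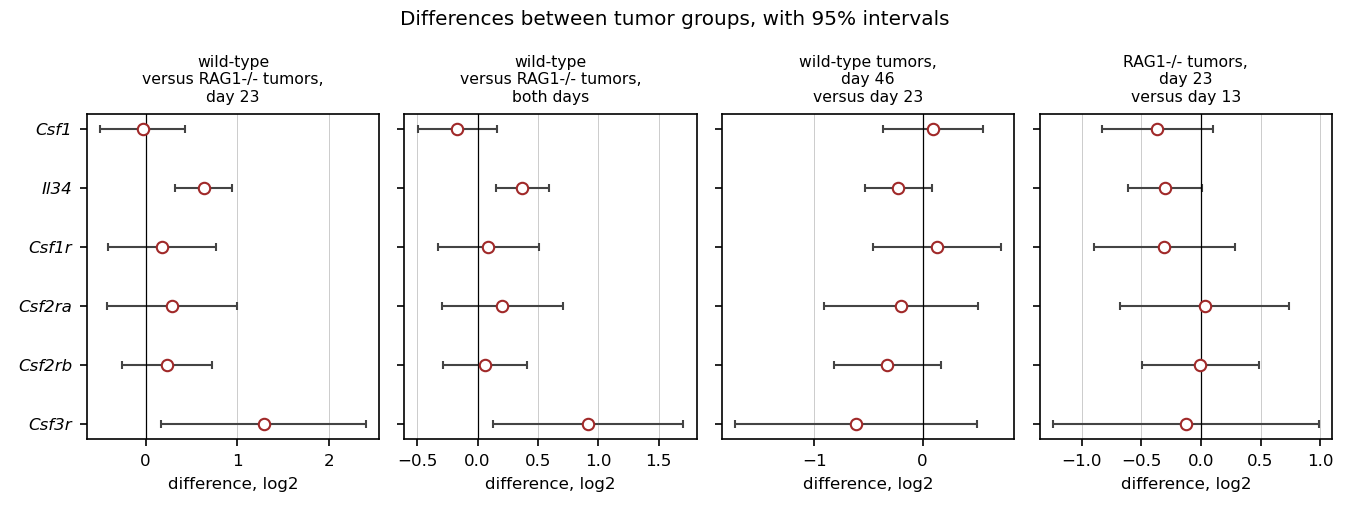
Points are limma log2 differences (first group minus second, on the log2 scale of normalized count + 1) with 95% intervals for the 6 genes tested in 4 comparisons among tumors; open points have an adjusted p of 0.05 or more. All 24 points are open, and the intervals of Il34 and Csf3r lie to the right of 0 in both genotype comparisons.

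Beside these values, the neutrophil list at day 23 summed to 26.6, 43.5 and 57.0 in the wild-type tumors and to 52.4, 194 and 76.9 in those labelled RAG1-/-. None of its 5 genes tested passed between genotypes in either comparison, with log2 differences at day 23 from -2.08 (S100a9) to 0.10 (Mmp8). The dendritic cell list (8 genes) summed to 1213, 805 and 1253 in wild-type tumors of day 23 and to 377, 530 and 703 in those labelled RAG1-/-. These sums did not overlap, as was so for 16.1% of single genes tested, and most of each was Itgax (log2 difference 1.17, limma adjusted p = 0.0571). None of the 4 genes of the list that were tested passed, and their median log2 difference was 0.21. The keratinocyte list summed to 383, 1622 and 715 in wild-type tumors of day 23, to 480, 445 and 377 in those labelled RAG1-/- and to between 235 and 361 in wild-type tumors of day 46. Its median log2 difference between genotypes at day 23 was 2.28, and none of its 5 genes passed. In MC38 cells the keratinocyte list summed to 311 ± 1.09 (SD, n = 2). The part of the neutrophil, dendritic cell and keratinocyte lists in the Csf3r and Il34 values was not tested.

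Between the 2 days sampled in each genotype, none of the 6 genes passed. From day 23 to day 46 in wild-type tumors, 0% of 14746 genes were called by limma, with 1261 at an unadjusted p under 0.05, and edgeR called 0 and DESeq2 26 as higher and 17 as lower. Il34 (log2 difference -0.22, limma adjusted p = 0.685), Csf2rb (-0.32, 0.72) and Csf3r (-0.61, 0.771) were each lower in all 3 tumors of day 46 than in any of day 23, and 12.5% of all genes tested had groups that did not overlap. From day 13 to day 23 in tumors labelled RAG1-/-, 0% of genes were called by limma, with 1722 at an unadjusted p under 0.05, and edgeR called 0 and DESeq2 89 as higher and 117 as lower. No member had groups without overlap there, where 19.4% of all genes tested did, and the differences ran from -0.37 for Csf1 (95% interval -0.83 to 0.10) to 0.03 for Csf2ra (-0.68 to 0.74).

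Other genes of the pathway were read from lists, whose counts stand beside 18.3% of all genes higher in wild-type tumors than in MC38 cells and 27.9% called in either direction. Among 9 relatives of the receptors, 6 could be tested between wild-type tumors and MC38 cells, and 3 were higher and none lower: Csf2rb2, Kit (at 0 in MC38 cells) and Pdgfrb (log2 difference 1.43, SE 0.47, limma adjusted p = 0.0306). Kit encodes the receptor for stem cell factor. Of 6 relatives of the ligands, 4 were tested, of which Kitl, the gene of stem cell factor, was lower in wild-type tumors (1581 against 3029, -0.95, SE 0.16, limma adjusted p = 0.000161) and Pdgfa was higher (0.61, SE 0.20, adjusted p = 0.031). Il3 and Il5, the ligands that share Csf2rb, missed the filter.

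Of 20 genes of signaling below the receptors, 11 were higher in wild-type tumors than in MC38 cells (18.3% of all genes) and none was lower, with a median log2 difference of 0.99 against 0.05 over all genes. They included Tyrobp, which encodes an adaptor of myeloid receptors (2820 against 0 normalized counts), the phosphatases Inpp5d (197 against 1.34) and Ptpn6 (357 against 0.428), and Fgr (at 0 in MC38 cells). Against skin the same list had 4 genes higher in wild-type tumors, among them Lyn, Tyrobp and Socs1, and 7 lower, among them Cish and Pim1. These counts were near the shares over all genes, 22.8% higher and 34.2% lower. In tumors labelled RAG1-/-, 9 of the 20 were higher than in MC38 cells (15.8% of all genes) and none was lower.

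Of 10 myeloid transcription factors, 8 were tested and 5 were higher in wild-type tumors than in MC38 cells (18.3% of all genes), among them Spi1 (247 against 1.71), Irf8 (492 against 3.06), Cebpa (42.9 against 0) and Runx1 (992 against 685). The same number, 5, was higher in tumors labelled RAG1-/- (15.8% of all genes), where Klf4 was lower (-0.54, SE 0.19, limma adjusted p = 0.0465). Of the cytokines that induce colony-stimulating factors, 3 of the 4 tested were higher in wild-type tumors than in MC38 cells: Il1b (332 against 1.28), Tnf (30.2 against 0.428) and Il1a (14.6 against 0.489). Between genotypes and between days, 0 genes of these 5 lists passed the test.

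Likeness of pattern was described by Pearson's r of log2(normalized count + 1) over the 16 libraries, among 13182 genes with a mean of at least 20. The 2 skin libraries were the lowest for Csf1 and Il34. The 2 MC38 libraries were the lowest for Csf1r, Csf2ra and Csf2rb, so that r can rest largely on 2 libraries. The nearest genes were Hoxd10 (0.96), Tmem206 (0.96) and Spata5 (0.95) to Csf1, and Eva1b (0.96), Gm14005 (0.96) and Serpinb9 (0.95) to Il34. For Csf1r they were Rac2 (0.997), Ctsc (0.996) and Myo1f (0.996), for Csf2ra Cd72 (0.99), Bin2 (0.98) and Ncf1 (0.98), and for Csf2rb Fcgr2b (0.996), Cxcl16 (0.995) and Laptm5 (0.995). Csf1 and Il34 had an r of 0.83 with each other, Csf1r and Csf2rb one of 0.99, and Csf1 and Csf1r one of -0.03. Csf3r, with a lower mean, was not compared.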

How the data were processed

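Total RNA was made into 3' mRNA libraries (Lexogen QuantSeq) and sequenced on the Ion Proton System. Per the labels and the study's methods, the authors removed adapters with Cutadapt, trimmed with Trimmomatic, aligned to mm10 with STAR and then Bowtie2, counted reads per gene with HTSeq and normalized with DESeq2; tool versions, gene annotation and strand setting are not given in the sources used here. The deposited signal is a normalized read count, that is, reads per gene divided by a size factor. Whole reads could be recovered for 100% of values (tolerance 0.01). A second table, with 6 columns matched to no label, was not used, so the 6 antibody-treated tumors were not analysed here. Replicates differed by more than sampling noise, so none was counted as a copy.

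Because the values are normalized, limma 3.58.1 (R 4.3.3) with a mean-dependent trend on log2(normalized count + 1) was used in place of the DESeq2 test of the study, two-sided, on genes averaging 5 or more across the libraries of the fit, with Benjamini-Hochberg adjustment over all genes and a threshold of 0.05. The 4 tumor groups shared 1 fit, with MC38 cells or skin added where compared. Single genes were tested by exact permutation (scipy 1.17.1). Recovered reads were tested with DESeq2 1.42.0 and edgeR 4.0.16 as alternatives, beside other scalings, pseudocounts of 0.1 and 5, other filters, all 16 libraries in 1 fit, a replicate block and each library left out. The limma code was tested on simulated data.

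All 8 members are named. From the pathway and cell type lists up to 5 genes per list and comparison are named, the called ones with the largest change first (some are not reported here), and for each member with a mean of at least 20 the 3 genes most like it. The members and lists were chosen with earlier results of these data known. Csf2rb2, Hmgxb3, Rag1, Epcam, S100a9, Mmp8, Camp, Cxcr2, Itgax, Cish, Pim1, Socs1, Il3, Il5 and the markers at 0 are named beside results they touch. Motifs of AP-1, C/EBP and NF-kB were also searched in the promoters at first and are not reported; this was decided after their matches had been seen. Intervals and detection limits (3 reads) cover counting error only.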

Additional observations from a re-analysis of the deposited data

Results flagged for a closer look

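Among 12 sets of 6 tumors examined, 1 value stood apart: Csf2ra in replicate 1 of the wild-type tumors of day 23, at 263 normalized counts, where the other 5 wild-type tumors had 117 to 172. Its gap to the next tumor was only just above Dixon's 95% critical value for 6 samples, which chance exceeds in about 1 in 20 sets. The same tumor had the highest Csf1r (1668) of the 16 libraries and a macrophage and monocyte list at 33528, the highest of the 12 tumors. Its Csf2rb, at 299, was the lowest among the wild-type tumors of day 23 (the others at 338 and 339). Without it the difference in Csf2ra between genotypes at day 23 was -0.02 on the log2 scale (adjusted p = 0.992) in place of 0.29.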

How the results depend on the processing

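Of 146 recomputed counts of members past the threshold, 144 stayed within 1.5 times the reported count; the other 2 rose from 0 to 1 with DESeq2, which called Il34 between genotypes at day 23 and over both days. Among single genes the sign changed only for differences that had not passed: Csf1 between genotypes at day 23 became 0.0084 with upper quartile and 0.0023 with total scaling, Csf2ra in tumors labelled RAG1-/- from day 13 to day 23 became -0.010 with DESeq2, -0.016 with edgeR, -0.033 with upper quartile and -0.084 with total scaling, and Csf2rb between wild-type tumors and skin became 0.123 with total scaling. The cause was not tested.

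With single libraries left out, log2 differences between genotypes at day 23 ranged from -0.26 to 0.18 for Csf1, -0.13 to 0.46 for Csf1r and -0.022 to 0.45 for Csf2ra, and over both days from -0.062 to 0.23 for Csf1r and -0.059 to 0.17 for Csf2rb. From day 23 to day 46 in wild-type tumors they ranged from -0.11 to 0.27 for Csf1, -0.13 to 0.43 for Csf1r and -0.36 to 0.11 for Csf2ra, and from day 13 to day 23 in tumors labelled RAG1-/- from -0.17 to 0.35 for Csf2ra, -0.25 to 0.21 for Csf2rb and -0.43 to 0.31 for Csf3r. Csf1 between wild-type tumors and MC38 cells ranged from -0.021 to 0.17, and between wild-type tumors and skin the range was -0.11 to 0.35 for Csf1r, 0.039 to 1.19 for Csf2ra and -1.32 to -0.053 for Csf3r, both lowest without skin replicate 1 and highest without skin replicate 2.

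Over all genes, DESeq2 called 158 higher and 81 lower in wild-type tumors of day 23 (limma 34 and 7, edgeR 17 and 5, no filter 18 and 4, no trend 12 and 3) and 195 and 90 over both days (limma 84 and 21, no trend 41 and 7). Leaving out 1 library moved the higher calls to between 4 and 55 at day 23, with fewest without wild-type replicate 3, and to between 57 and 140 over both days, with most without day 23 replicate 3 of the RAG1-/- tumors and fewest without replicate 1. Without MC38 replicate 1 or 2, limma called 1769 or 1735 genes higher and 525 or 437 lower in wild-type tumors than in MC38 cells (2687 and 1413 with both), 1550 or 1478 higher and 410 or 354 lower in tumors labelled RAG1-/- (2317 and 1111), and without skin replicate 1 or 2 it called 4031 or 4120 genes lower in MC38 cells than in skin (6920). From day 13 to day 23 in tumors labelled RAG1-/-, 2 genes were called higher and 35 lower without day 13 replicate 2, and from day 23 to day 46 in wild-type tumors 5 and 2 without day 46 replicate 1. Upper quartile scaling raised the share of higher calls against MC38 cells from 65.5% to 83.3% in wild-type tumors and from 67.6% to 80.2% in tumors labelled RAG1-/-; total scaling raised it from 33.5% to 47.2% for MC38 cells and from 40% to 57.7% for wild-type tumors against skin.

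Replicate numbers were not taken as pairs: 18 same-numbered pairs of tumors correlated from -0.24 to 0.25 in their deviations, with 4 above 0.1. Of these, 3 were all the pairs between day 23 RAG1-/- and day 46 wild-type tumors (0.105, 0.208 and 0.135, against -0.16 to 0.017 for differently numbered ones), groups compared only within both days together. The replicate block gave 33 higher and 6 lower genes at day 23 and 89 and 20 over both days, and called 0 members in either, as without it. The 2 libraries each of MC38 cells and of skin, and counts of 0 to 4 reads for the receptors in MC38 cells, limit the size of those ratios.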
